A study of Mus musculus with 8 samples.

Results

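The 9 genes described here encode surface proteins with which leukocytes hold on to the vessel wall. They are 8 integrin chains (Itgam, Itgax, Itgal, Itgad, Itgb2, Itga4, Itgb7 and Itgae) and Selplg, the protein scaffold that carries selectin ligands. They were found by exact symbol among the 48607 loci of the gene table, and where a symbol stood on several rows the row with the largest summed count was taken, which applied to Itga4 and Selplg. RNA from the entire aorta was sequenced from 8 mice, 5 libraries titled ApoE-/- and 3 titled NPRC-/-ApoE-/-. Every mouse lacked ApoE, which raises plasma cholesterol and brings on atherosclerosis, and every mouse had received Western diet, for 12 weeks according to the methods. The second group also carried a systemic knockout of natriuretic peptide receptor C (NPRC, gene Npr3), made with CRISPR/Cas9 as a frameshift on a C57BL/6 background, so that the receptor is lost from all cells and not from leukocytes or endothelium alone. The ApoE-/- animals served as littermate controls. The methods name as many aortas of the second genotype as of the first, and 3 are analysed here. The ApoE-/- stock was bought as 8-week-old males, and the age and sex of the 8 sequenced mice were not given in the sources used here. The genotype entry of 4 libraries contradicts their title: ApoE-/- 4 and ApoE-/- 5 are entered as NPRC-/-ApoE-/-, and NPRC-/-ApoE-/- 1 and NPRC-/-ApoE-/- 2 are entered as ApoE-/-. Groups below follow the title, and the fold changes of the 9 genes grouped by the entry stand beside them. The column names of the gene table repeat the titles, and whether they are a separate record of the genotype is not given. Which label is right cannot be told apart from these sources.

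An integrin is a pair of 1 alpha and 1 beta chain, and neither chain reaches the cell surface well without its partner. The beta 2 chain (Itgb2, CD18) pairs with the alpha chains L (Itgal, CD11a), M (Itgam, CD11b), X (Itgax, CD11c) and D (Itgad, CD11d), which bind ICAM proteins, complement fragments and other ligands. The beta 7 chain pairs with alpha 4 (Itga4), which with this or another beta chain binds VCAM-1 and MAdCAM-1, and with alpha E (Itgae, CD103), which binds E-cadherin on epithelium. PSGL-1, the product of Selplg, is bound by P-, E- and L-selectin and lets leukocytes roll along inflamed endothelium before integrins arrest them. In an atherosclerotic aorta these chains mark macrophages and dendritic cells (CD11b, CD11c), lymphocytes (CD11a, beta 7) and leukocytes as a whole (CD18, PSGL-1).

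The libraries held 67039577 to 84600371 counted reads (ApoE-/-) and 62969165 to 86693276 (NPRC-/-ApoE-/-), so depth did not separate the groups. Npr3, the deleted gene, was measured at 1.69, 0.93, 0.62, 1.01 and 1.67 FPKM in ApoE-/- 1 to 5 and at 1.18, 1.39 and 1.13 FPKM in NPRC-/-ApoE-/- 1 to 3, where FPKM is a fragment count divided by transcript length and by sequencing depth. Its log2 fold change was 0.10 by title (SE 0.28), and since a frameshift can leave the transcript in place this value checks neither label. Among smooth muscle genes, Acta2 was at 849.37 to 1982.09 FPKM. Ptprc (CD45, the surface protein common to leukocytes) reached 1.67 to 8.15 FPKM, so leukocyte RNA was present in every library. In whole tissue, fewer leukocytes and less RNA of a gene per leukocyte cannot be told apart.

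Among the 9 genes, Itgb2 and Itgax were the most abundant, with medians over the 8 libraries of 28.0 and 25.8 FPKM. These neighbours did not separate, since Itgb2 lay above Itgax in 4 of 8 libraries. Itgam followed at a median of 9.01 FPKM, below Itgax in all 8. Itga4 (median 4.18 FPKM) and Selplg (3.75 FPKM) changed places between libraries, Itga4 being the higher in 6 of 8. Itgb7 (2.48 FPKM) and Itgal (1.56 FPKM) likewise kept their order in 6 of 8. Itgae (0.505 FPKM) and Itgad (0.095 FPKM) were the scarcest, and Itgae was above Itgad in 7 of 8 libraries. The range over libraries was narrowest for Itga4, whose highest value was 2.2 times the lowest, and widest for Itgae and Itgb7, at 9.2 and 9.1 times. Itgad, read as 0 in 1 library, has no such ratio.

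**Figure D1:**
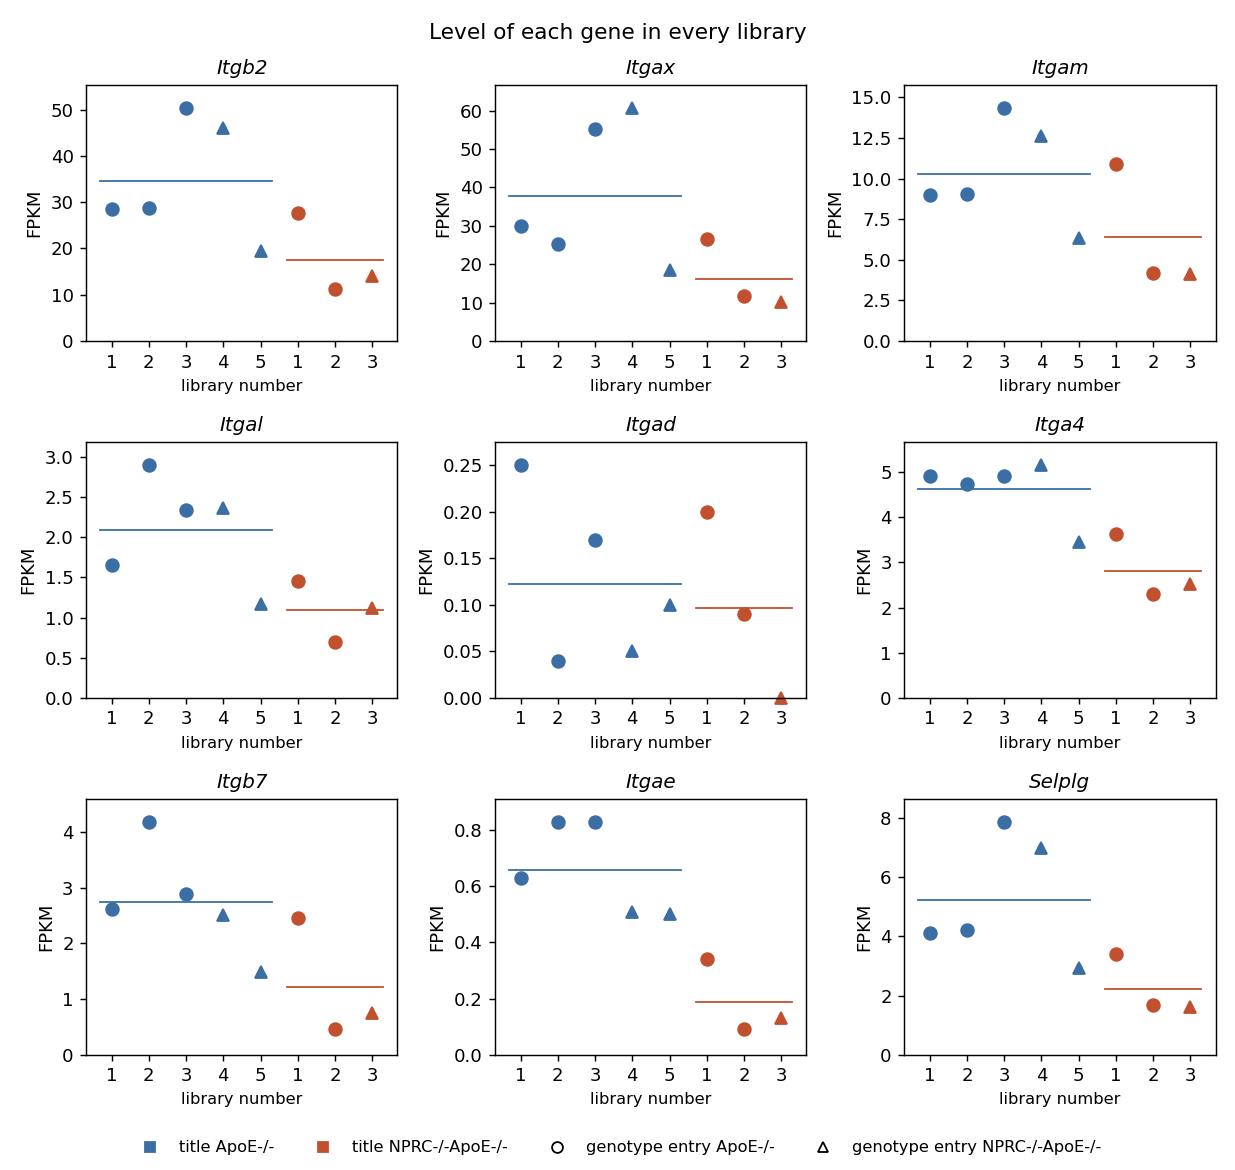
Level in FPKM (linear axis from 0) of each of the 9 genes in every library, with colour for the group by title, marker shape for the genotype entry and a line for the mean of each titled group. For every gene but Itgad, NPRC-/-ApoE-/- 2 and 3 lie below all 5 ApoE-/- libraries, while NPRC-/-ApoE-/- 1 lies inside the ApoE-/- range for every gene but Itgae. The share of all loci with such positions was not counted.

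Fold changes are given as log2 values for NPRC-/-ApoE-/- minus ApoE-/-, fitted to counts with the quasi-likelihood test of edgeR over all 20506 loci that reached 1 FPKM in at least 3 libraries. Itgb2, the chain shared by 4 of the alpha chains, lies on chromosome 10 (chr10:77530252-77565708, GRCm38, plus strand). It was measured at 28.41, 28.73, 50.30, 45.92 and 19.35 FPKM in ApoE-/- 1 to 5 and at 27.56, 11.14 and 14.05 FPKM in NPRC-/-ApoE-/- 1 to 3. ApoE-/- 3 and 4 were the highest, NPRC-/-ApoE-/- 2 and 3 were the lowest, and the groups overlapped through NPRC-/-ApoE-/- 1. The means were 34.5 ± 13.0 FPKM (SD, n = 5) and 17.6 ± 8.76 FPKM (SD, n = 3). The log2 fold change was -0.99 (SE 0.41), with an unadjusted p of 0.041 and an adjusted p of 0.35 by edgeR. Grouped by genotype entry it was -0.12 (SE 0.52).

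Itgax, the CD11c chain of dendritic cells and of lipid-laden macrophages, lies on chromosome 7 (chr7:128129547-128150657). Its levels were 30.05, 25.12, 55.23, 60.62 and 18.36 FPKM in ApoE-/- 1 to 5 and 26.57, 11.70 and 10.11 FPKM in NPRC-/-ApoE-/- 1 to 3. The pattern over libraries was that of Itgb2, with ApoE-/- 3 and 4 about level with each other and far above the rest. Itgax had a mean of 37.9 ± 18.9 FPKM (SD, n = 5) against 16.1 ± 9.08 FPKM (SD, n = 3), a log2 fold change of -1.26 (SE 0.51, unadjusted p = 0.034, edgeR adjusted p = 0.33). Under the genotype entry no fall was left, the value being 0.03 (SE 0.63), with ApoE-/- 4, the library with the most Itgax, then counted among the knockouts.

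Itgam, the CD11b chain of monocytes, macrophages and neutrophils, is the upstream neighbour of Itgax (chr7:128062640-128118491). It was measured at 8.97, 9.05, 14.34, 12.64 and 6.32 FPKM in ApoE-/- 1 to 5 and at 10.88, 4.16 and 4.11 FPKM in NPRC-/-ApoE-/- 1 to 3. NPRC-/-ApoE-/- 1 was here above 3 of the 5 ApoE-/- libraries. The log2 fold change was -0.70 (SE 0.40), with an unadjusted p of 0.12 and an adjusted p of 0.46 by edgeR, and -0.27 by genotype entry. The table row of Itgam also names Gm49368, a coding gene annotated over the same stretch, so the counts do not separate these annotations. Of the 50-base words of the longest annotated Itgam transcript, 72.4% also occur in Gm49368, and reads of these shared words cannot be told apart.

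The stretches upstream of Itgam and Itgax are shown because both genes lie next to each other in the same orientation and are the most abundant of the alpha chains that pair with beta 2. Both were taken from RefSeq (GRCm38.p6, plus strand), cover the 250 bases that end just before the RefSeq start, and were searched for GAGGAA and its reverse complement TTCCTC, the core that the myeloid transcription factor PU.1 binds, which is set in capitals. The window of Itgam is chr7:128062390-128062639 and that of Itgax is chr7:128129300-128129549, which runs a few bases past the start of the gene as annotated above.
Itgam: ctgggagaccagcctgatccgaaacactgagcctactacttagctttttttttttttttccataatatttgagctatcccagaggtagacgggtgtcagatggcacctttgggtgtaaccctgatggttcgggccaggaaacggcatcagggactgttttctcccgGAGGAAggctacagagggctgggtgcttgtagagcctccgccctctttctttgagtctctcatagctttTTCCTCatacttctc
Itgax: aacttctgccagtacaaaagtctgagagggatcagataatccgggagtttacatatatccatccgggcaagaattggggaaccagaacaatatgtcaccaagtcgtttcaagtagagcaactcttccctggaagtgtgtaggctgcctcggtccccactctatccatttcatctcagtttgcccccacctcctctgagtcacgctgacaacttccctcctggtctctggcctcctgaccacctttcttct
The Itgam window holds GAGGAA, with its first base 84 bases upstream of the start, and TTCCTC, with its first base 15 bases upstream. The Itgax window holds neither run of letters, nor do those of Itga4 and Itgb7, the other genes of this group with a RefSeq entry here (4 of 9 matched). Of 32851 windows of the same length in the table, 23.3% held at least 1 match and 3.54% held several. A match describes letters in this window and not a bound site.

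Itgal, the CD11a chain of LFA-1 on lymphocytes and most other leukocytes, lies further upstream on the same chromosome (chr7:127296260-127335138). The values were 1.66, 2.90, 2.34, 2.36 and 1.17 FPKM in ApoE-/- 1 to 5 and 1.46, 0.69 and 1.12 FPKM in NPRC-/-ApoE-/- 1 to 3. Unlike the myeloid chains, Itgal was highest in ApoE-/- 2. It had a log2 fold change of -0.93 (SE 0.35, unadjusted p = 0.028, edgeR adjusted p = 0.32) by title and of -0.18 by genotype entry. Itgad, the CD11d chain, is the downstream neighbour of Itgax (chr7:128154376-128223816) and never reached 1 FPKM. It was counted at 127, 18, 84, 28 and 49 reads in ApoE-/- 1 to 5 and at 106, 34 and 0 reads in NPRC-/-ApoE-/- 1 to 3. No order of the groups is visible in these counts. Fitted without a filter, the log2 fold change of Itgad was -0.39 (SE 1.02) by title and -1.52 (SE 1.0) by genotype entry, with unadjusted p of 0.71 and 0.16. Of the 50-base words of Itgad, 15.2% occur in other genes, 384 of them in Itgax and 233 in the pseudogene Gm17831 on the same table row, and how the authors assigned reads of these shared words is not given in the sources used here.

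Within each library the 4 alpha chains that pair with beta 2 were set against their sum in FPKM. Itgax made up 65.9% to 80.1% of it, Itgam 16.7% to 27.8%, Itgal 3.12% to 7.81% and Itgad at most 0.611%. The share of Itgam was 16.7% to 24.4% in the ApoE-/- libraries and 25.0% to 27.8% in the NPRC-/-ApoE-/- libraries, ranges that did not overlap. This was noticed after the values were seen and was not tested, and by genotype entry the ranges were 19.9% to 27.8% and 16.7% to 26.8%. The planned ratio of Itgam to Itgb2 is given below.

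**Figure D2:**
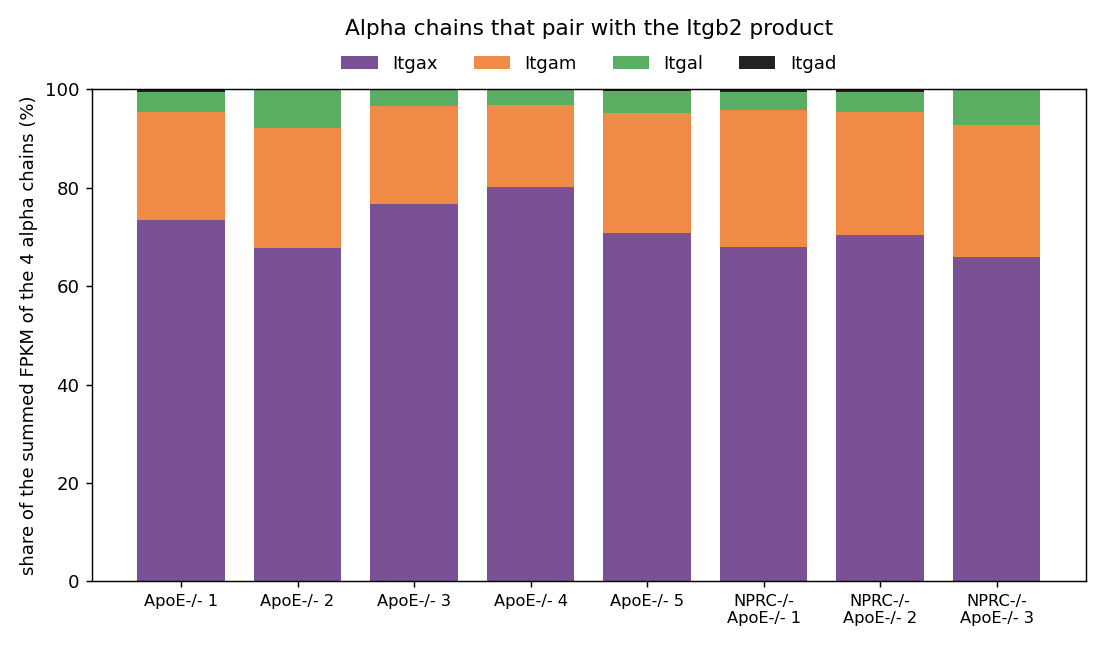
Stacked bars show, for each library by title, the share in percent of the summed FPKM of Itgax, Itgam, Itgal and Itgad that each gene contributed. Itgax contributed the most in all 8 libraries, from 65.9% to 80.1%.

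Itga4, the alpha 4 chain that binds VCAM-1 and is carried by monocytes and lymphocytes, lies on chromosome 2 (chr2:79255426-79333123). It was measured at 4.92, 4.74, 4.92, 5.16 and 3.45 FPKM in ApoE-/- 1 to 5 and at 3.62, 2.31 and 2.52 FPKM in NPRC-/-ApoE-/- 1 to 3. Here 4 ApoE-/- libraries lay close together, and ApoE-/- 5 alone fell below NPRC-/-ApoE-/- 1. The means were 4.64 ± 0.681 FPKM (SD, n = 5) and 2.82 ± 0.704 FPKM (SD, n = 3). The log2 fold change of -0.71 was among the smallest of the group, but with an SE of 0.21 it had the lowest unadjusted p of the 7 genes that passed the filter, 0.0076 (edgeR adjusted p = 0.27). By genotype entry it was -0.11.

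Itgb7, the beta 7 chain of gut-homing and other lymphocytes, lies on the minus strand of chromosome 15 (chr15:102215995-102231944). Its levels were 2.61, 4.18, 2.88, 2.51 and 1.49 FPKM in ApoE-/- 1 to 5 and 2.45, 0.46 and 0.75 FPKM in NPRC-/-ApoE-/- 1 to 3. NPRC-/-ApoE-/- 2 and 3 were far below every other library, while NPRC-/-ApoE-/- 1 was level with ApoE-/- 4. The log2 fold change was -1.16 (SE 0.54), which missed the threshold with an unadjusted p of 0.058 and an adjusted p of 0.38 by edgeR, and -0.63 (SE 0.62) by genotype entry.

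Itgae, the CD103 chain of tissue-resident T cells and of a class of dendritic cells, lies on chromosome 11 (chr11:73090583-73147446). It never reached 1 FPKM and was counted at 284, 307, 376, 234 and 210 reads in ApoE-/- 1 to 5 and at 165, 33 and 64 reads in NPRC-/-ApoE-/- 1 to 3. Its FPKM values of 0.50 to 0.83 in the ApoE-/- libraries and 0.09 to 0.34 in the NPRC-/-ApoE-/- libraries did not overlap, and Itgae was the sole member of the group of 9 for which this held. Without a filter on low values 3.45% of all 44689 loci showed such a separation downwards. In that fit Itgae had a log2 fold change of -1.78 (SE 0.44), a 3.42-fold higher level in ApoE-/-, with an unadjusted p of 0.0023 and an adjusted p of 0.28 by edgeR. DESeq2 gave it an adjusted p of 0.0039 on the same counts, the lowest among the alternatives. The highest was 0.78, by edgeR without NPRC-/-ApoE-/- 3. Over the 20506 filtered loci, DESeq2 called 650 at an adjusted p under 0.05 and edgeR called 0. Itgae was not among those loci, and the number that DESeq2 called without a filter was not counted. By genotype entry the log2 fold change was -0.51 (SE 0.66).

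Selplg lies on the minus strand of chromosome 5 (chr5:113818536-113832644). PSGL-1 was represented by 4.11, 4.22, 7.88, 6.99 and 2.92 FPKM of Selplg in ApoE-/- 1 to 5 and by 3.39, 1.68 and 1.60 FPKM in NPRC-/-ApoE-/- 1 to 3. As with Itgb2, Itgax and Itgam, the libraries ApoE-/- 3 and 4 were the highest. The means were 5.22 ± 2.11 FPKM (SD, n = 5) and 2.22 ± 1.01 FPKM (SD, n = 3). Selplg was 2.38-fold higher in ApoE-/-, a log2 fold change of -1.25 (SE 0.42, unadjusted p = 0.015, edgeR adjusted p = 0.30), and by genotype entry the log2 fold change was -0.13.

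Counted together, 5 of the 7 genes that passed the filter (Itgax, Itgal, Itgb2, Itga4 and Selplg) were lower by title with an unadjusted p under 0.05, and none was higher. Over all 20506 loci 7.13% were lower and 6.51% higher by that rule. With the criterion named in the methods, a fold change under 0.5 together with that p, Itgax and Selplg were called, beside 2.39% of all loci. After adjustment over all loci 0 genes of the group were called, and 0.0% of all loci were, the smallest adjusted p of any locus being 0.0525. None of the 7 separated the groups downwards in FPKM without overlap, as 4.37% of loci did. The median log2 fold change of the 7 was -0.99, and that of all loci was -0.01. Without a filter 7 of 9 genes were lower at an unadjusted p under 0.05, all but Itgam and Itgad, beside 5.92% of loci. Because a gene could pass the filter through the ApoE-/- libraries alone, these counts describe the genes and are no separate evidence of a direction.

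Grouped by the genotype entry, none of the 7 had an unadjusted p under 0.05 in either direction, and 0.697% of all loci were lower and 0.614% higher. The median log2 fold change of the 7 was then -0.13, with an adjusted p of 1 for each gene by edgeR. Among the 4 libraries for which title and entry agree (ApoE-/- 1, 2 and 3 and NPRC-/-ApoE-/- 3), the log2 difference ranged from -0.86 for Itga4 to -1.98 for Itgb7, with -1.27 for Itgam, -1.69 for Itgax, -1.21 for Itgb2, -0.92 for Itgal and -1.60 for Selplg. This sets 1 library against 3 and was not tested. The difference for Ptprc in the same libraries was -1.88.

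**Figure D3:**
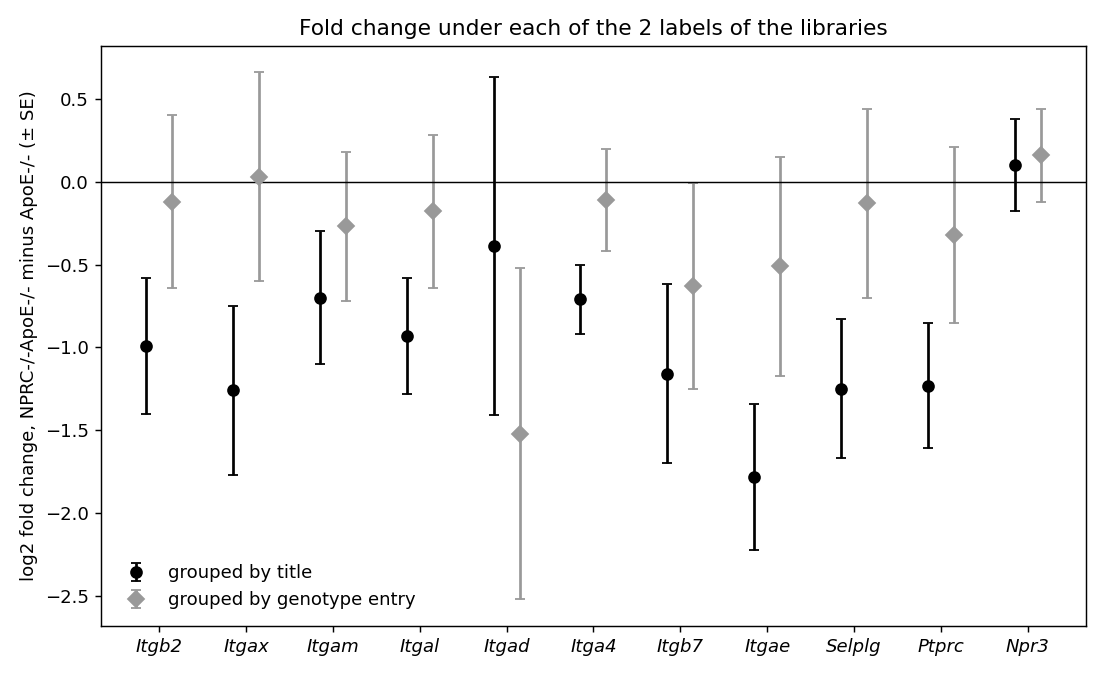
Log2 fold change of each gene with its standard error, for libraries grouped by title (black circles) and by genotype entry (grey diamonds), with Ptprc and Npr3 for reference. Grouped by title every gene of the 9 lies below 0, and grouped by entry the values of the integrin chains and Selplg lie between -1.52 and 0.03.

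Single libraries changed the size of these values and which genes had an unadjusted p under 0.05. The 7 genes that passed the filter stayed below 0 with any 1 library left out. NPRC-/-ApoE-/- 3 lay below every ApoE-/- library for all 9 genes and NPRC-/-ApoE-/- 2 for 8 of 9, while NPRC-/-ApoE-/- 1 lay inside the ApoE-/- range for 8 of 9. The share of all loci for which a single library lay so was not counted, so these counts describe the 9 genes only. Within ApoE-/-, library 5 was the lowest for 8 of 9 genes. Without NPRC-/-ApoE-/- 1 all 7 genes were lower with an unadjusted p under 0.05, beside 11.6% of all loci, and the log2 fold change of Itgb7 moved from -1.16 to -2.13. Without NPRC-/-ApoE-/- 2 or without NPRC-/-ApoE-/- 3, Itga4 was the only one of the 7 with such a p (0.037 and 0.029 by edgeR), and Itgb7 came to -0.75 and -0.91. For these fits the share of all loci with such a p was not counted. Itgae, fitted without a filter, stayed between -2.49 and -1.43 with any 1 library left out, its highest unadjusted p being 0.013. Itgad changed sign, to 0.22, without NPRC-/-ApoE-/- 3. When limma gave each library a weight for its distance from the rest, Itgb2, Itga4, Itgb7 and Selplg had adjusted p values of 0.047, 0.036, 0.041 and 0.041, beside 3.73% of all loci that were lower at an adjusted p under 0.05.

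**Figure D4:**
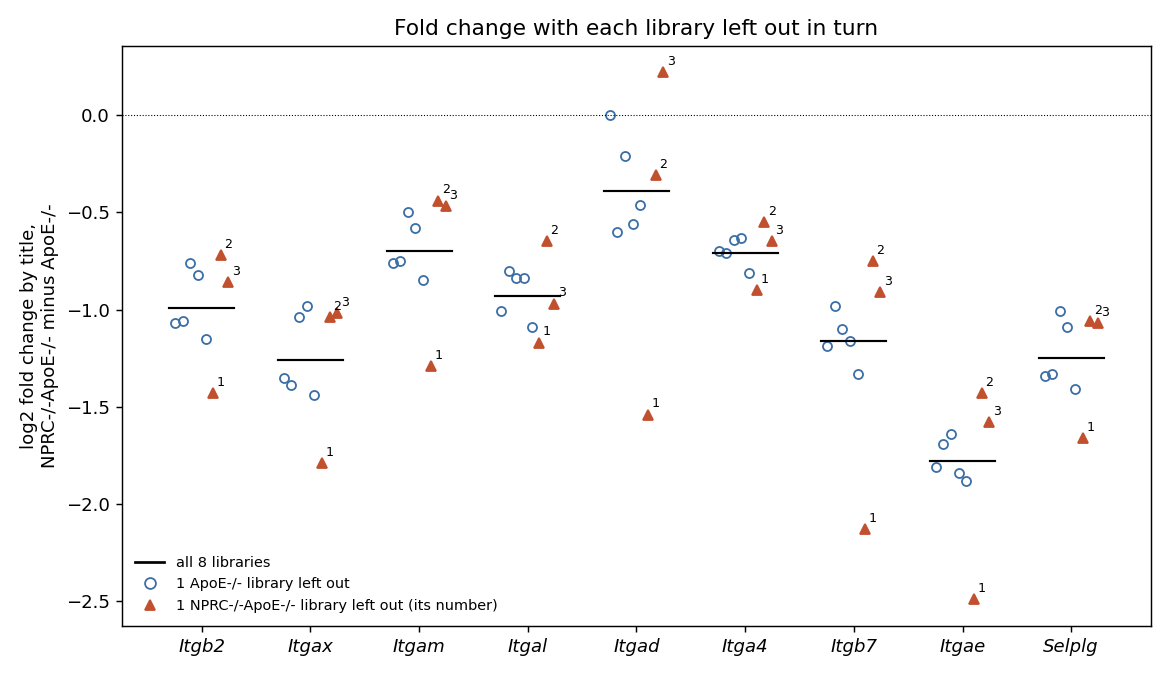
Log2 fold change by title of each gene in all 8 libraries (black line) and with each library left out in turn (open circles for ApoE-/- libraries, triangles with the library number for NPRC-/-ApoE-/- libraries). Leaving out NPRC-/-ApoE-/- 1 gave the lowest value for all 9 genes, for example -2.49 for Itgae and -2.13 for Itgb7.

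Ratios within a library ask whether partner chains, or a chain and CD45, moved by the same factor. Each was compared as a log2 ratio of FPKM (0.1 FPKM added to both) by exact permutation of the titles (two-sided, 5 against 3), whose smallest possible p is 0.018. Itgam to Itgb2 was -1.71 ± 0.11 (SD) in ApoE-/- and -1.49 ± 0.22 in NPRC-/-ApoE-/-, a difference of 0.22 (exact p = 0.12). Itgax to Itgb2 differed by -0.22 (exact p = 0.32), Itgal to Itgb2 by 0.12 (exact p = 0.71) and Itgad to Itgb2 by 0.77 (exact p = 0.20). Relative to the partner Itgb7, Itga4 differed by 0.63 (exact p = 0.20) and Itgae by -0.14 (exact p = 0.66). None of these alpha to beta ratios passed the threshold. The chain encoded by Itga4 can also pair with another beta chain, so its ratio to Itgb7 does not cover all its partners. Itgb1, from the list of other integrin subunits, was at a mean of 156 FPKM, with a log2 fold change of 0.21 (SE 0.15) by title. The ratio of Itga4 to Itgb1 was not tested. For the scarce chains the value turned on the added constant. The Itgad ratio was 0.12 with 0.01 FPKM added and 0.23 from scaled counts. The Itgae ratio was -0.50 with 0.01 FPKM added (exact p = 0.089), 0.33 with 1 FPKM added (exact p = 0.29) and -0.43 from scaled counts (exact p = 0.12). With nothing added, Itgae to Itgb7 was 0.199 to 0.336 in ApoE-/- and 0.139 to 0.196 in NPRC-/-ApoE-/-, ranges that did not overlap, which was seen afterwards and was not tested.

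Against Ptprc, which itself had a log2 fold change of -1.23 (SE 0.38, unadjusted p = 0.010, edgeR adjusted p = 0.28), the beta chains and PSGL-1 showed small differences. They were 0.36 for Itgb2 (exact p = 0.23), 0.02 for Itgb7 (exact p = 0.98) and 0.17 for Selplg (exact p = 0.66). Itga4 to Ptprc differed the most, by 0.64, from -0.51 ± 0.19 (SD) to 0.13 ± 0.52, with an exact p of 0.071. The linear ratio of Itga4 to Ptprc was 0.582 to 0.813 in ApoE-/- and 0.718 to 1.38 in NPRC-/-ApoE-/-. Of the 10 ratios none passed the threshold, and the smallest p adjusted over the 10 (Benjamini-Hochberg, exact permutation tests) was 0.46 by title and 0.87 by genotype entry. Without NPRC-/-ApoE-/- 1, Itga4 to Itgb7 and Itga4 to Ptprc differed by 1.07 and 0.95, each at the smallest exact p that this split allows, 0.048. Without NPRC-/-ApoE-/- 3, Itgam to Itgb2 differed by 0.35, also at an exact p of 0.048.

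The other genes of leukocyte adhesion were followed in 5 lists of 72 genes, of which 62 passed the filter. Among ligands and selectins on the vessel wall, 4 of 9 were lower by title at an unadjusted p under 0.05 and none was higher. By that rule 7.13% of all 20506 loci were lower and 6.51% higher. F11r (JAM-A, a ligand of LFA-1) was at 6.88 to 8.26 FPKM in ApoE-/- and at 5.95, 4.53 and 4.62 FPKM in NPRC-/-ApoE-/- 1 to 3, without overlap (log2 fold change -0.56, SE 0.15). Of all 20506 loci, 4.37% separated downwards in this way. Sele (E-selectin) had a log2 fold change of -1.23 (SE 0.33), Icam1 (the main ligand of LFA-1 and Mac-1) of -0.72 (SE 0.27) and Thy1 of -0.87 (SE 0.37). Vcam1, the ligand of alpha 4 integrins and the most abundant gene of this list at a mean of 34.5 FPKM, had -0.96 (SE 0.45), which did not pass.

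Among genes that activate integrins or signal from them, 16 of 22 were lower and 1 was higher by the same rule, with a median log2 fold change of -0.88. The lowest p values were those of Lcp2 (the adaptor SLP-76, -1.06, SE 0.27), Rasgrp2, Apbb1ip (RIAM, which links Rap1 to talin, -0.82, SE 0.23) and Fcer1g (the FcR gamma chain, -1.34, SE 0.40). Rasgrp2 (CalDAG-GEFI, which activates Rap1) was the gene that rose, from 1.19 to 2.11 FPKM in ApoE-/- to 3.16, 2.47 and 2.48 FPKM in NPRC-/-ApoE-/- 1 to 3, without overlap (log2 fold change 0.70, SE 0.18). The share of all loci that separated upwards in this way was not counted. Tyrobp (DAP12), the most abundant of this list, had -1.14 (SE 0.55), which did not pass.

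In the glycosylation enzymes that build selectin ligands 1 of 6 was lower, B4galt1, at -0.66 (SE 0.24), while Tpst1, which sulfates tyrosines, had -0.10 (SE 0.15). Of the other selectin ligand scaffolds 1 of 8 was lower, Cd24a, at -0.93 (SE 0.28), and Glg1 had 0.16 (SE 0.15). Such single genes stand beside 7.13% of all loci lower by the same rule and say little about their lists. Integrin subunits outside the group of 9 moved in both directions: 3 of 17 were lower and 4 higher, with a median of 0.11. Over all loci the shares were 7.13% and 6.51%. Itga7 (a laminin receptor chain of muscle) rose by 0.63 (SE 0.13), Itga3 by 0.69 (SE 0.18) and Itga8, the most abundant integrin alpha chain of the list at a mean of 159 FPKM, by 0.68 (SE 0.28). Itgb8 fell by 1.08 (SE 0.32) and Itga6 fell by 0.91 (SE 0.31). No gene of the 5 lists passed an adjusted p under 0.05 by edgeR, and by genotype entry none had an unadjusted p under 0.05.

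**Figure D5:**
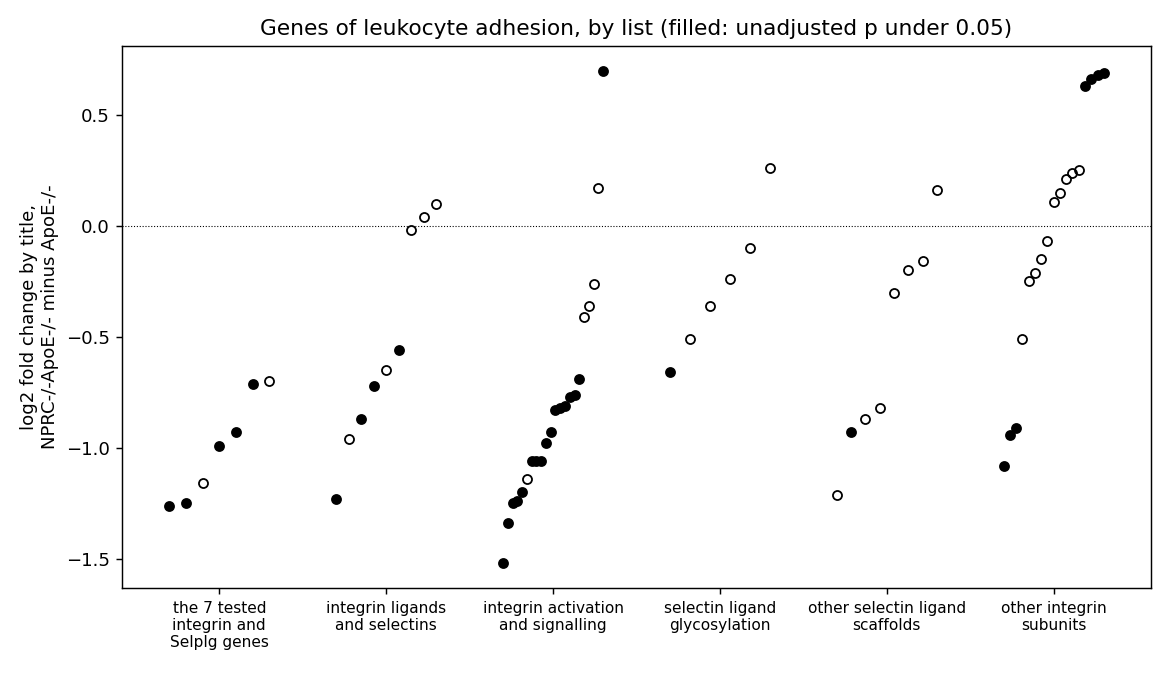
Log2 fold change by title of the 7 tested genes and of the tested genes of the 5 lists, each point a gene, filled where the unadjusted edgeR p is under 0.05. The activation and signalling genes lie mostly below 0 (16 of 22 filled below), while the other integrin subunits lie on both sides (3 filled below and 4 above).

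Grouped by title, the median log2 fold changes of the leukocyte and fibroblast marker lists lay below 0, as did that of the 9 genes. The medians of the endothelial (-0.11) and adipocyte (0.04) markers were small, and that of the smooth muscle markers lay above 0. By genotype entry no tested marker had an unadjusted edgeR p under 0.05. The median log2 fold change of the general leukocyte markers was -1.10 by title and -0.28 by entry. That of the smooth muscle markers was 0.66 and 0.12. Of 8 general leukocyte markers 6 were lower at an unadjusted p under 0.05, and their summed level was 87.2 to 195 FPKM in ApoE-/- and 44.5 to 120 FPKM in NPRC-/-ApoE-/-. For this and the other marker counts, the shares of all 20506 loci by that rule were 7.13% lower and 6.51% higher. Of 12 macrophage markers 6 were lower, with sums of 764 to 2350 FPKM against 365 to 1190 FPKM, highest in ApoE-/- 3 and 4, the libraries with the most Itgax, Itgam, Itgb2 and Selplg between them. B cell markers (2 of 6 tested, 1 lower) summed to 2.68 to 22.5 FPKM against 1.39 to 4.74 FPKM. The sum of 22.5 FPKM was in ApoE-/- 2, where Itgb7 and Itgal were highest, and the other libraries had at most 7.41 FPKM. In ApoE-/- 2 the sums of T cell, dendritic cell, mast cell and adipocyte markers were also the highest of all libraries. T cell markers (2 of 10 tested, 1 lower) summed to 5.44 to 11.6 FPKM against 3.58 to 7.62 FPKM.

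Dendritic cell markers (3 of 7 tested, 2 lower) summed to 7.54 to 11.1 FPKM against 3.7 to 6.97 FPKM, NK cell markers (1 of 6 tested, 1 lower) to 2.58 to 4.23 FPKM against 1.51 to 2.01 FPKM, and mast cell markers (4 of 5 tested, 4 lower) to 6.11 to 19.5 FPKM against 2.55 to 3.12 FPKM. Of the 12 marker sums, these 3 did not overlap between the titled groups, and all 3 overlapped by genotype entry. Among single loci, 4.37% separated downwards by title in this way. Neutrophil markers (1 of 5 tested lower) summed to 3.87 to 15.2 FPKM against 2.95 to 13.0 FPKM. Smooth muscle markers went the other way, 6 of 7 being higher, with sums of 1310 to 1750 FPKM against 1700 to 2910 FPKM. Endothelial markers (0 of 6 lower or higher) summed to 58.7 to 72.2 FPKM against 57.3 to 62.4 FPKM, fibroblast markers (1 of 5 lower) to 464 to 1280 FPKM against 259 to 669 FPKM, and adipocyte markers (0 of 5) to 133 to 589 FPKM against 306 to 540 FPKM. As with the 9 genes, a marker or other listed gene could pass the filter through the ApoE-/- libraries alone. The mast cell markers Cpa3 and Tpsb2 did so, reaching at most 0.67 and 0.66 FPKM in NPRC-/-ApoE-/-. The counts of lower markers are therefore no separate evidence of a direction. No marker was at 0 in every library, and the part of cell composition in the values of the 9 genes was not tested.

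Over the 8 libraries the 9 genes correlated with each other in log2(FPKM + 1) at Pearson's r of 0.01 to 0.98 (36 pairs, median 0.84), and without Itgad at 0.74 to 0.98 (28 pairs). These are descriptions over 8 points that share tissue and group. Among the tested loci most alike to each gene were Tyrobp (0.991) for Itgam, Aph1c and C3ar1 (both 0.995) for Itgax, and Sh3bgrl3 (0.994) for Itgb2. They were Plau and Psap (both 0.997) for Selplg, Gas6 (0.991) and Rsph3b (0.989) for Itgal, and Arhgap30 (0.991) and Gm15356 (0.990) for Itga4. For Itgb7 they were Traf1 (0.992) and Slfn8 (0.987), for Itgae Thsd7a (0.983) and Phf11b (0.978), and for Itgad, at its few reads, Gm17849 (0.966) and Prkg1 (0.959). Tyrobp, the partner chain of several myeloid receptors, and C3ar1, the receptor of the complement fragment C3a, are carried by myeloid cells.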

How the data were processed

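Poly(A) RNA of the entire aorta was sequenced from 8 libraries. The authors deposited 1 gene table with counts per locus and FPKM per library. Per the labels, reads were trimmed with cutadapt 1.9 and checked with FastQC, and GRCm38 was the build. HISAT2 and StringTie are named in the methods, and how the deposited counts were made, and whether strand was used, is not given in the sources used here. Of the loci, 4195 symbols stood on several rows and 1710 rows carried several names.

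Counts were fitted with edgeR 4.0.16 (TMM, quasi-likelihood, 20506 loci reaching 1 FPKM in 3 or more libraries, Benjamini-Hochberg over all of them), and the study's criterion of a fold change above 2 or under 0.5 with p under 0.05 was kept. Itgae and Itgad lay under the filter and were fitted over 44689 loci. Ratios (0.1 FPKM added, with 0.01 FPKM, 1 FPKM and scaled counts as alternatives) were tested with scipy 1.17.1. DESeq2 1.42.0 and limma 3.58.1 served as alternatives, and the fits were tested on simulated data. P-values measure the spread between libraries, which may in part be technical, and no pair of libraries agreed within sampling noise. The members, lists and alternatives were chosen with earlier results of these data known. Named genes are, per pathway list, up to 4 with the smallest unadjusted p under 0.05 and the one with the largest mean FPKM, and per marker list the first measured gene, of which Ptprc and Acta2 are given. Most alike genes are, per member, the 2 tested loci with 1 gene name and the highest Pearson correlation, some of which are not reported here. Replicate numbers did not pair the samples.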

Additional observations from a re-analysis of the deposited data

Results flagged for a closer look

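Of 38 groups of 5 libraries examined for a sample far from the others, 1 stood out, and chance flags about 1 in 20 such groups, or 1.9 here. When libraries were grouped by genotype entry, Itgb7 had a log2 CPM (library-scaled count) of 0.92 in NPRC-/-ApoE-/- 2, one of the libraries whose labels conflict and which the entry places with ApoE-/-. The other 4 libraries of that group lay between 3.31 and 4.05. By title the same library stands with NPRC-/-ApoE-/- 3, which was also low in Itgb7. Why it differs was not tested.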

How the results depend on the processing

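The number of genes among the 9 called at a fold change under 0.5 with an unadjusted p under 0.05 (2 by edgeR) was 0 by genotype entry, 1 with limma on log2(FPKM + 1), 4 with limma array quality weights, 4 of 9 without a filter and 1 of 3 at a mean of at least 5 FPKM. Leave-one-out gave 0 to 6, the count being 0 without NPRC-/-ApoE-/- 2 or 3, 6 without NPRC-/-ApoE-/- 1, 1 without ApoE-/- 3 or 4, 5 without ApoE-/- 5 and 4 without ApoE-/- 1. The genes of the 5 lists called (10) numbered 0 by entry, 4 with limma on log2(FPKM + 1), 16 with array quality weights, 3 at a mean of at least 5 FPKM and 2 to 26 under leave-one-out. The chain ratios that differed (0) numbered 0 to 2 under leave-one-out. By entry, none of the 7 tested members was called with median-ratio size factors, DESeq2, limma on log2(FPKM + 1) or leave-one-out, and none of 9 without a filter. The median log2 fold change kept its sign in every alternative and came to -0.13 by entry. Itgad came to -1.54 without NPRC-/-ApoE-/- 1. Single genes did not stay below 0 in 3 instances: Itgax by entry (0.03, SE 0.63), and Itgad without ApoE-/- 1 (0.0) and without NPRC-/-ApoE-/- 3 (0.22). The cause of these changes was not tested. Over all loci, 491 were called lower and 221 higher by edgeR, against 54 and 41 by entry, 137 and 38 with limma on log2(FPKM + 1), 1544 and 743 without a filter, 78 and 36 at a mean of at least 5 FPKM, 373 and 126 with array quality weights, 1090 and 545 without NPRC-/-ApoE-/- 1, 227 and 177 without NPRC-/-ApoE-/- 2, 271 and 132 without NPRC-/-ApoE-/- 3, 308 and 227 without ApoE-/- 3, 345 and 192 without ApoE-/- 4, 716 and 416 without ApoE-/- 5, and 525 and 295 without ApoE-/- 1. At an adjusted p under 0.05 DESeq2 called 650 loci, none of the 7 tested members among them, and limma with array quality weights 1168. Replicate numbers 1 to 3 occur in both groups, but deviations of same-numbered libraries correlated at -0.27, -0.13 and -0.01, so the numbers are not taken as pairs. A replicate block in those 6 libraries called 4 of the members lower beside 534 of 20506 loci, and the same 6 without a replicate block called 5 beside 586. Median-ratio size factors left each call of the members as it was. The low counts of Itgae (33 to 376) and Itgad (0 to 127) limit their precision.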
